A study of Mus musculus with 2 samples.

Results

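The genes described here are 10 mouse genes for proteins that fold chromosomes into loops: Ctcf, Smc1a, Smc3, Rad21, Stag1, Stag2, Nipbl, Wapl, Pds5a and Pds5b. They were taken as a given list out of 21938 protein-coding genes annotated on the assembled chromosomes, and each was examined for binding of YY1, a zinc finger transcription factor that can also join enhancers and promoters. The data were the peaks of 1 YY1 ChIP-seq library, in which DNA bound by YY1 is recovered with an antibody and sequenced, from MuSCs, the stem cells of skeletal muscle. MuSCs of several Ctrl mice of the dystrophic mdx strain, whose dystrophin gene is mutated, were mixed. According to the methods these controls were Pax7 CreERT2/R26YFP; Yy1 +/+; mdx, so that they carried the Cre driver of the satellite cell gene Pax7 and the YFP reporter but intact Yy1. The paper calls the cells freshly isolated, while the labels describe cultured cells and a wild-type design. The age and sex of these mice, and whether they received tamoxifen, were not given for this library in the sources used here. Peaks were called against 1 background library, which the labels call input and the methods input or IgG, and which was not used on its own here. With 1 library there are no replicates, so no value below has an error between mice and no difference between genes was tested, and the peaks say where YY1 was recovered and nothing about the expression of these genes. For the same reason the MuSC label could not be checked against marker genes.

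Cohesin is a ring of SMC1A, SMC3 and the kleisin RAD21, to which STAG1 or STAG2 is attached. NIPBL loads the ring and drives it to extrude a loop of DNA, WAPL releases it, and PDS5A and PDS5B bind it and modulate its residence. CTCF, a zinc finger protein bound to DNA at many loop anchors, stops the extruding ring, whereas YY1 is found with cohesin at loops between enhancers and promoters.

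A YY1 summit, the position of the highest pileup in a peak, lay within 1000 bp of a transcript start at 8 of the 10 genes. These were Ctcf, Smc3, Rad21, Stag1, Nipbl, Wapl, Pds5a and Pds5b, which are all 8 autosomal genes of the list. The X-linked genes Smc1a and Stag2 had none. By the same rule 4119 protein-coding genes were bound, which is 18.8% (95% exact binomial interval 18.3% to 19.3%, covering counting error only), or 19.7% of those on autosomes and 2.32% of those on chromosome X. All 10 genes have a CpG-rich start window, as 49.5% of protein-coding genes do: among the 300 bases from 250 before to 50 after at least 1 of the gene's starts, more than 50% are G or C and the CpG content is over 0.6 of that predicted from the base composition. Autosomal genes with such a window were bound in 35.4% of cases, and those without it in 3.4%, and the part of base composition in the 8 of 8 was not tested. This class was defined after the values were seen.

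**Figure D1:**
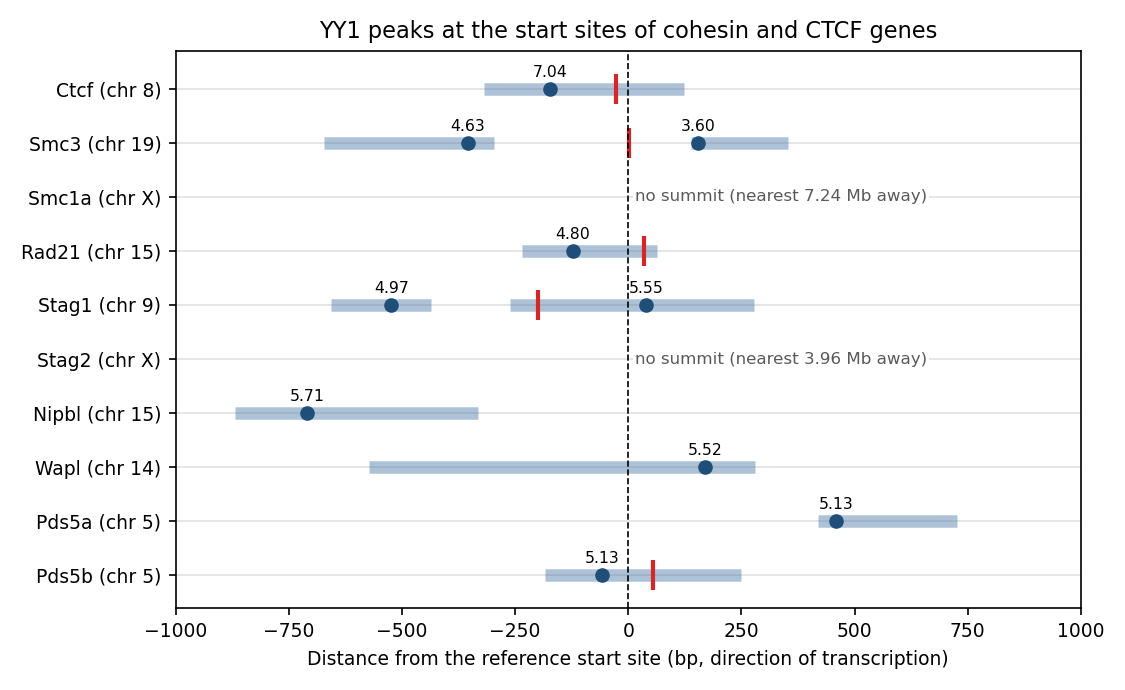
YY1 peaks around the start sites of the 10 genes, in bp along the direction of transcription from the start nearest to the gene's highest summit. Blue bars are peaks, dots are summits with their fold enrichment, red ticks are matches of AANATGGC, and Smc1a and Stag2 have no peak in the window.

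The 8 genes had 10 promoter peaks, since Smc3 and Stag1 had 2 each. How common 2 peaks were among all bound genes was not counted. Their fold enrichment, defined as (fragments + 1) divided by (local background + 1) at the summit, was between 3.60 and 7.04. Taking the highest peak of each gene, the median was 5.32 and the range 4.63 to 7.04, beside a median of 5.13 and quartiles of 4.34 and 6.05 over all 3971 promoter peaks. The 3971 were not reduced to the highest peak of each gene, so these medians are unlike measures. The member peaks held 11 to 21 fragments at the summit, with a median of 12.5 against 14 over all 4681 peaks, and were 405.5 bp wide at the median against 354 bp. In height the loop genes thus lay around the middle of the promoter peaks of this library, with Ctcf above the upper quartile. All 10 had a q-value under 0.05 in the deposited list and 9 a q-value under 0.01, as had 98.1% and 92.2% of all promoter peaks. Fold enrichment reached 5 in 6 of the 10 peaks, 1 at each of 6 genes, and in 56.8% of promoter peaks, so these counts are near the general shares.

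**Figure D2:**
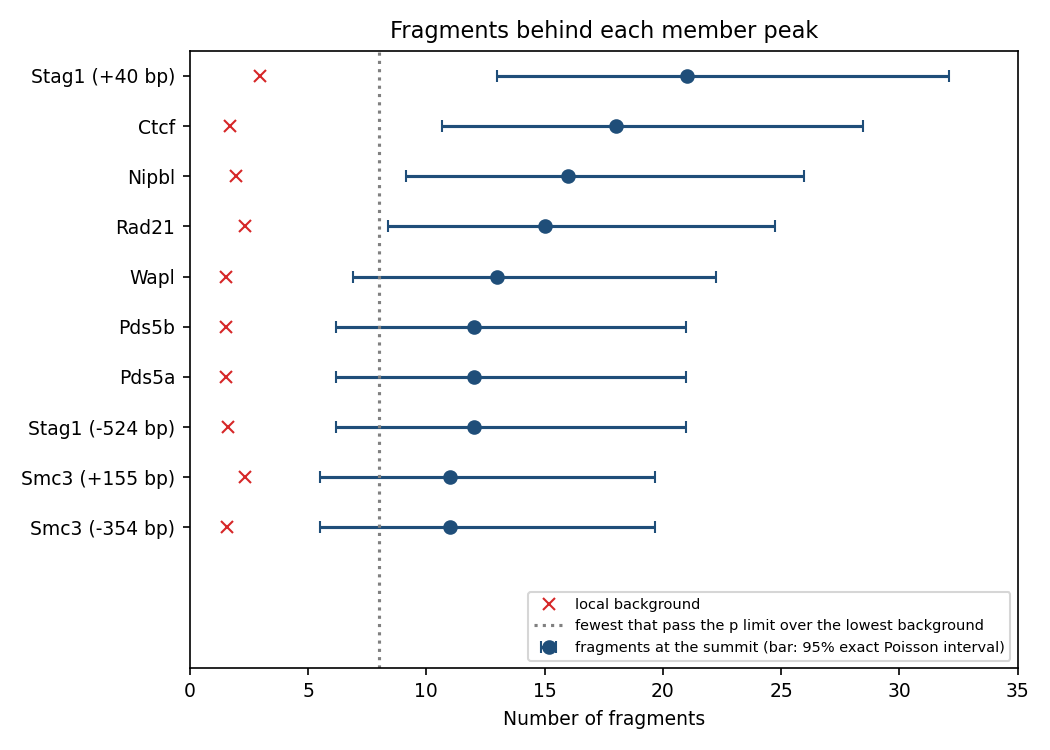
Fragments at the summit of each of the 10 peaks (dots, with 95% exact Poisson intervals of the fragments), the local background (crosses) and the 8 fragments that pass the p limit over the lowest background (dotted line). The counts run from 11 at both Smc3 peaks to 21 at the Stag1 peak over its start, and the intervals of all 10 peaks overlap.

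Ctcf, the gene of the insulator protein, had the highest fold enrichment of the list. It lies on the plus strand of chromosome 8 from 105636568 to 105682922 (GRCm38, the same sequence as mm10) with 1 transcript in the basic annotation, which starts at 105636579. The peak reached from 105636259 to 105636702, and its summit lay 172 bp upstream of that start, outside the gene. There were 18 fragments (95% exact Poisson interval 10.7 to 28.4) over a local background of 1.70, a fold enrichment of 7.04 (4.32 to 10.9, with the background held fixed). The deposited Poisson p was 3.88e-14, and 88.1% of all peaks had a lower fold enrichment. Starts of other genes lay within reach of the same summit, that of Agrp, which encodes a hypothalamic feeding peptide, at 986 bp and that of the lincRNA Gm5914 at 943 bp, so the peak also counts as theirs by this rule. The bases around the summit are shown because this peak has the highest fold enrichment of the list, although its interval overlaps those of the other peaks. They are printed along the gene and hold neither AANATGGC, the motif of YY1, nor its core ATGGC.
Ctcf summit, chr8:105636377-105636437, plus strand: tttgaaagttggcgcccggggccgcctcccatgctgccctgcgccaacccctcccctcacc

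Of the 3 genes of the ring itself, Smc3 and Rad21 were bound and Smc1a was not. Smc3, whose protein forms the SMC dimer with SMC1A, lies on the plus strand of chromosome 19 from 53600398 to 53645833 and had a peak on each side of its start. The upstream peak (53599725 to 53600101) had its summit 354 bp before the start, with 11 fragments over 1.59, a fold enrichment of 4.63 and a p of 1.29e-07. A transcript start of AC137853.1, a record of unsettled coding status, was 633 bp from that summit. The downstream peak (53600536 to 53600750) had its summit 155 bp inside exon 1, also with 11 fragments but over 2.34. Its fold enrichment of 3.60 was the lowest of the 10 and at or below it were 8.13% of promoter peaks, with a p of 6.48e-06 and a q of 0.0128. The summits were 509 bp apart and the peaks were separated by 434 bp, a gap that holds the start itself.

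Rad21 encodes the kleisin that closes the ring, and occupies chromosome 15 from 51962240 to 51991747 on the minus strand. Its peak, from 51991683 to 51991981, spanned the start, with the summit 123 bp upstream. It had 15 fragments (interval 8.40 to 24.7) over 2.34 and a fold enrichment of 4.80, below the median of promoter peaks, with a p of 4.21e-09. The window around the summit is shown for a different motif, that of the factor NRF1, which is in capitals. It was searched as GCGCA, any base and GCGC, on both strands.
Rad21 summit, chr15:51991840-51991900, minus strand: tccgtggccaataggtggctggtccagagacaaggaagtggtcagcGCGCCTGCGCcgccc

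STAG1 and STAG2 are alternative subunits of the ring, and their genes differed in these data: Stag1 had 2 promoter peaks and Stag2 none. Stag1 is on the plus strand of chromosome 9, with a gene record from 100597798 to 100959375. The record begins upstream of both transcripts of the basic annotation, which start at 100643448 and 100643613, so both summits fall inside it. The peak over the starts (100643187 to 100643726) had its summit 40 bp downstream of the first, in exon 1, and 125 bp upstream of the other. It held 21 fragments (13.0 to 32.1), the most of the list, but over the highest local background of the list, 2.96, so that its fold enrichment was 5.55. The exact Poisson p of the peak caller was 1.26e-12. The other peak (100642791 to 100643012) had a summit 524 and 689 bp upstream of the starts, with 12 fragments over 1.61 and a fold enrichment of 4.97. The summits were 564 bp apart and the gap between the peaks was 174 bp.

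Nipbl, the gene of the loader, occupies chromosome 15 from 8290617 to 8444463 on the minus strand. Its peak, from 8444795 to 8445333, did not reach the annotated start. The summit lay 709 bp upstream, the farthest of the 8 genes, and a window of 500 bp would leave Nipbl out. It had 16 fragments (9.15 to 26.0) over 1.98 and a fold enrichment of 5.71, with a Poisson p of 4.66e-11. This fold enrichment was the second highest of the list, although its interval overlaps those of the other peaks. Inside the window rule, Nipbl was the gene closest to the limit of 1000 bp, and outside it the closest was Stag2, 3.96 Mb away, so no gene of the list was a borderline case on the far side.

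Wapl and Pds5a, whose products act on the bound ring after loading, carried their summits downstream of every start. Wapl, the gene of the release factor, is on the plus strand of chromosome 14 from 34673928 to 34747983. Its peak, from 34673600 to 34674453, was the widest of the list at 854 bp and covered all 3 of its starts, with the summit in exon 1 at 170, 221 and 415 bp from them. It held 13 fragments over 1.54, a fold enrichment of 5.52 and a p of 1.12e-09. The same summit lay 580 bp upstream of the start of 5830448L01Rik, a non-coding RNA transcribed from the same promoter in the other direction. Pds5a, on chromosome 5 from 65605721 to 65698273 on the minus strand, had its peak from 65697130 to 65697437 in intron 1, with the summit 459 and 771 bp downstream of its 2 transcript starts at 65697856 and 65698168. Pds5b, its paralog on the plus strand of the same chromosome from 150673739 to 150810690, had its peak from 150673555 to 150673988 over the start, with the summit 58 and 146 bp upstream of 2 of its 3 starts and out of reach of the other. The paralogs had identical heights, 12 fragments (6.20 to 20.96) over 1.54, a fold enrichment of 5.13 and a p of 1.03e-08, at different places relative to the start. Their summit windows hold different motifs. In the Pds5a window the capitals mark the core ATGGC. In the Pds5b window they mark 2 overlapping matches of the NRF1 motif.
Pds5a summit, chr5:65697367-65697427, minus strand: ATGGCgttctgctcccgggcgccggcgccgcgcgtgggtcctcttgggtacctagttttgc
Pds5b summit, chr5:150673651-150673711, plus strand: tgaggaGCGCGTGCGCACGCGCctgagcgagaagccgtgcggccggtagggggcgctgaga

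Over the 10 peaks, 6 summits lay upstream of every start in reach. The same share was not computed over all promoter peaks, so this count only describes the 10. A summit fell inside the gene at 4 genes, Smc3, Stag1, Wapl and Pds5a, beside 13.7% of all protein-coding genes, with 5 summits in all. Counting any overlap of a peak with the gene, it was 7 genes, with Ctcf, Rad21 and Pds5b added, beside 18.8% of all protein-coding genes. Each of the 5 summits was also within 1000 bp of a start. Deeper in the genes there was none: no member had a summit inside it and over 1000 bp from its starts, where 2.05% of all protein-coding genes had one. The genes are 29.5 to 361.6 kb long against a median of 17.4 kb for protein-coding genes. All summits in or near the loop genes were promoter summits at this depth, as were 3971 of all 4681 peaks. The 0 of 10 genes with a deeper summit is near the general share of 2.05%.

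The YY1 motif AANATGGC was present close to the starts of several loop genes. In the start windows the motif, searched on both strands, was present at 5 of 10 genes, Ctcf, Smc3, Rad21, Stag1 and Pds5b, beside 9.07% of all protein-coding genes and 14.4% of those with a promoter summit. The 30 bases that hold each copy are printed along the gene with the motif in capitals, which appears as its reverse complement at all but Stag1.
Ctcf motif, chr8:105636537-105636566, plus strand: accgcgccgccGCCATTTTgtgtccgagcc
Smc3 motif, chr19:53600385-53600414, plus strand: ccgcggccgccGCCATTTTgtttggccaca
Rad21 motif, chr15:51991698-51991727, minus strand: ccgtaacggccGCCATCTTgtttgtttgag
Stag1 motif, chr9:100643235-100643264, plus strand: gagaagctctaAAAATGGCgggcggcaacc
Pds5b motif, chr5:150673779-150673808, plus strand: ctgctcttggcGCCATTTTgaagcggagag

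The word was AAAATGGC at 4 of these genes and AAGATGGC at Rad21. Relative to the nearest start, the centre of the motif was at -28 bp in Ctcf, 2 bp in Smc3, 34 bp in Rad21 and -34 bp in Pds5b. These 4 copies were thus within 50 bp of a start, and all 4 were on the strand opposite to the gene. The copy of Stag1, on the strand of the gene, was 198 bp upstream. Over all protein-coding genes, 43.0% of the matches in start windows were on the opposite strand and 52.7% were centred within 50 bp of the start. With 5 copies, no difference from these shares was tested.

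None of the 10 member peaks had AANATGGC within 100 bp of its summit, beside 7.35% of all promoter peaks. With 10 peaks, this count of 0 is near the general share. The distance from each copy to the nearest summit of its gene was 144 bp in Ctcf, 154 bp in Smc3, 158 bp in Rad21, 238 bp in Stag1 and 112 bp in Pds5b. The motif was anywhere in the peak in 4 of the 10 member peaks, beside 14.4% of all promoter peaks, and the copy of Smc3 was in the gap between its 2 peaks. An offset between motif and summit was common in this library: of the 573 promoter peaks that hold AANATGGC, 48.5% had the nearest copy over 100 bp from the summit, and the median distance was 97.5 bp. The core ATGGC occurred within 100 bp of the summit in 4 of 10 member peaks, beside 31.0% of promoter peaks, at Ctcf, the downstream peak of Smc3, the Stag1 peak over its starts and Pds5a. Nipbl and the upstream peaks of Smc3 and Stag1 held neither form anywhere in the peak.

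Other promoter words, searched on both strands after the values were seen, were also present. The NRF1 motif was found in the start windows of 5 genes, Rad21, Stag1, Stag2, Wapl and Pds5b, beside 7.32% of protein-coding genes and 19.2% of those with a promoter summit. Within 100 bp of the summit it was found in 3 of the 10 member peaks, beside 11.6% of promoter peaks. The nearest match was 20 bp from the summit in Rad21, 36 bp in Stag1 and 14 bp in Pds5b, and in Stag1 a core ATGGC was nearer, at 10 bp. The GC box GGGCGG was in all 10 start windows, beside 51.1% of protein-coding genes and 80.1% of bound ones. The CCAAT box was in 6, among them both unbound genes, Smc1a and Stag2. It was in 46.6% of protein-coding genes, 43.2% of those with a promoter summit and 47.3% of those without. A match is a run of letters and not a measured binding site.

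The unbound genes of the list were both X-linked, a core subunit and 1 of the alternative subunits of the ring. Smc1a lies on the plus strand of chromosome X from 152016428 to 152062694. The summit nearest to its start was 7.24 Mb away, in a peak of 11 fragments over 1.98 with a fold enrichment of 4.03, and 90.6% of X-linked protein-coding genes had a nearer one. Stag2, on the plus strand from 42149317 to 42277185 with 3 starts, had its nearest summit 3.96 Mb away, in a peak of 14 fragments over 1.54 with a fold enrichment of 5.92, and 74.4% of X-linked genes had a nearer one. Over the 10 genes the median distance to the nearest summit was 171 bp, beside 93.7 kb over protein-coding genes, 82.9 kb for the autosomal ones and 1449.24 kb for the X-linked ones.

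The sequence before these starts is shown because it is CpG-rich, as at the bound genes. The 150 bases upstream of the first start are printed along the gene with each CG in capitals, 10 for Smc1a and 21 for Stag2. Neither stretch holds AANATGGC, and that of Stag2 holds the core ATGGC 2 times.
Smc1a upstream, chrX:152016278-152016427, plus strand: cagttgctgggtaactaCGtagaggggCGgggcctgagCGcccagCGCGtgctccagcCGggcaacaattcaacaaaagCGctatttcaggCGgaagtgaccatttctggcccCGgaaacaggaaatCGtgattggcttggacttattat
Stag2 upstream, chrX:42149167-42149316, plus strand: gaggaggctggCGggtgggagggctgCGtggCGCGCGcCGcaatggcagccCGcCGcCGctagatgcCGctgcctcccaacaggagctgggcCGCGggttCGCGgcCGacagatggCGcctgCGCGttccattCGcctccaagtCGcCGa

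The absence of summits at Smc1a and Stag2 went with a low number of peaks on the whole chromosome. Chromosome X held 34 peaks, 0.199 per Mb, while the 19 autosomes held 1.88 per Mb and between 1.21 and 3.30 each. The median fold enrichment was 4.04 on X and 5.11 on autosomes. A promoter summit was present at 2.32% of X-linked protein-coding genes (22 of 948, interval 1.46% to 3.49%), whereas the share on single autosomes ran from 14.98% on chromosome 7 to 27.2% on chromosome 12. With a CpG-rich start window, as both genes have, 7.04% of X-linked genes were bound (interval 4.35% to 10.7%). Most X-linked genes were thus unbound, like Smc1a and Stag2, and what sets the level of the chromosome was not tested. Each of the 50-base stretches tested within 1000 bp of their starts, 196 at Smc1a and 588 at Stag2, occurs once in the genome, and at the 8 bound genes 94.9% to 100% did. Depth sets how far the absence goes: over the lowest local background, 1.54 fragments, a site needed 8 fragments to pass the p limit and 7 would not have passed. Fewer fragments than that at Smc1a and Stag2 would not be seen here.

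**Figure D3:**
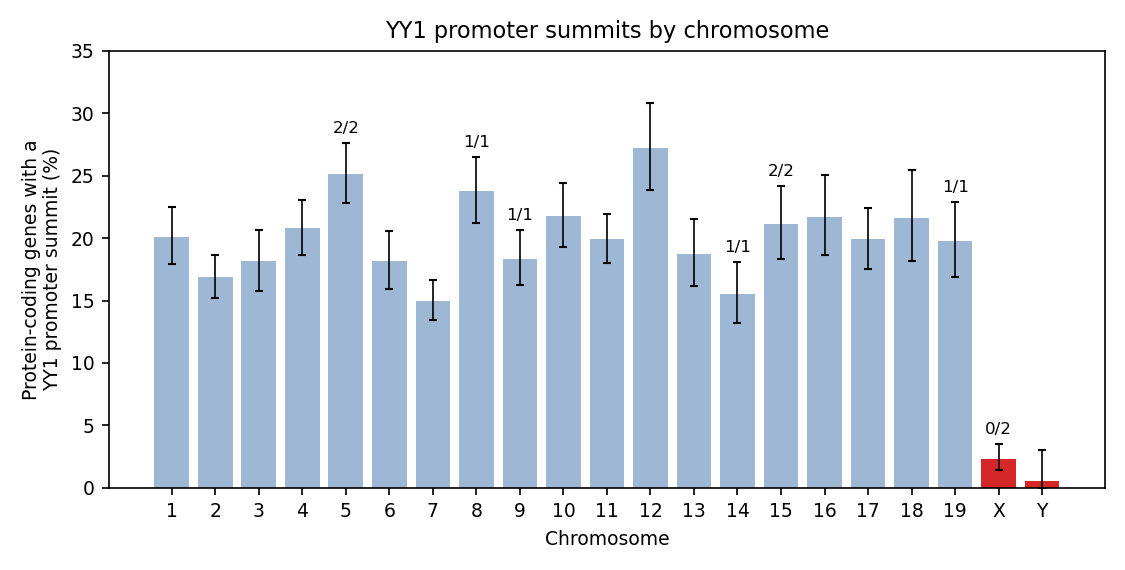
Share of protein-coding genes with a YY1 promoter summit on each chromosome (bars, with 95% exact binomial intervals), autosomes in blue and the sex chromosomes in red. The fractions give the bound genes out of the 10 loop genes on that chromosome, 8 of 8 on autosomes, whose shares run from 14.98% to 27.2%, and 0 of 2 on X at 2.32%.

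Around the 10 genes, a wider list of 39 related genes was examined by the same rule, and 20 had a promoter summit, with a median fold enrichment of 5.46. All 20 are among the 34 with a CpG-rich start window, which makes 58.8% of those, beside the 35.4% of autosomal genes of that class. The highest were Smchd1, an SMC-like protein of X inactivation, at 8.63, Zfp143, a zinc finger factor found at loop anchors, at 7.41, Hnrnpu, a nuclear matrix protein, at 6.72 with 2 peaks, and the cohesin acetyltransferase gene Esco1 at 6.56. They were followed by Cdca5 (sororin, which protects cohesin from WAPL) at 6.39, Nsmce4a at 6.31 and Nsmce2 at 5.92, both of the SMC5/6 complex, and Smc6 of the same complex at 5.55. Its SMC partner gene Smc5 was not bound, with the nearest summit 130.9 kb away.

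The counts of the subgroups are small, were not compared by a test and stand beside the 18.8% of all protein-coding genes. Of the 39 genes, 34 have a CpG-rich start window, and autosomal genes of that class were bound in 35.4% of cases. Among the loading and acetylation genes 2 of 5 were bound, Esco1 and Cdca5. Mau2, the partner of Nipbl in the loader, was not, with its nearest summit 68.5 kb away. Neither was the X-linked Hdac8, the deacetylase of SMC3, whose nearest summit was 1.17 Mb away. Sgo1, which protects cohesin at centromeres, was the only bound gene of the 5 for release and cleavage (5.15), and the genes of separase and securin were not bound. Of the 5 meiotic relatives, Stag3 was bound (4.70) and Smc1b, Rad21l, Rec8 and Ctcfl were not, the latter 3 without a CpG-rich start window. Condensin, the related complex that compacts mitotic chromosomes, had 4 of 8 (Smc2, Smc4, Ncapd3 and Ncaph2), at fold enrichments of 3.03 to 5.52, and the SMC5/6 complex had 4 of 6, with Nsmce3 as the other one. Among other loop and structure factors 8 of 10 were bound, in addition to Smchd1, Zfp143 and Hnrnpu also Patz1, Top2b, Ldb1, Maz and Yy1 itself. At 211 bp upstream of its start, Yy1 had 17 fragments over a background of 3.95. Its fold enrichment was 3.64, with a Poisson p of 2.08e-07. Yy1 also had a summit inside the gene beyond the promoter window, as had 2.05% of all protein-coding genes.

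**Figure D4:**
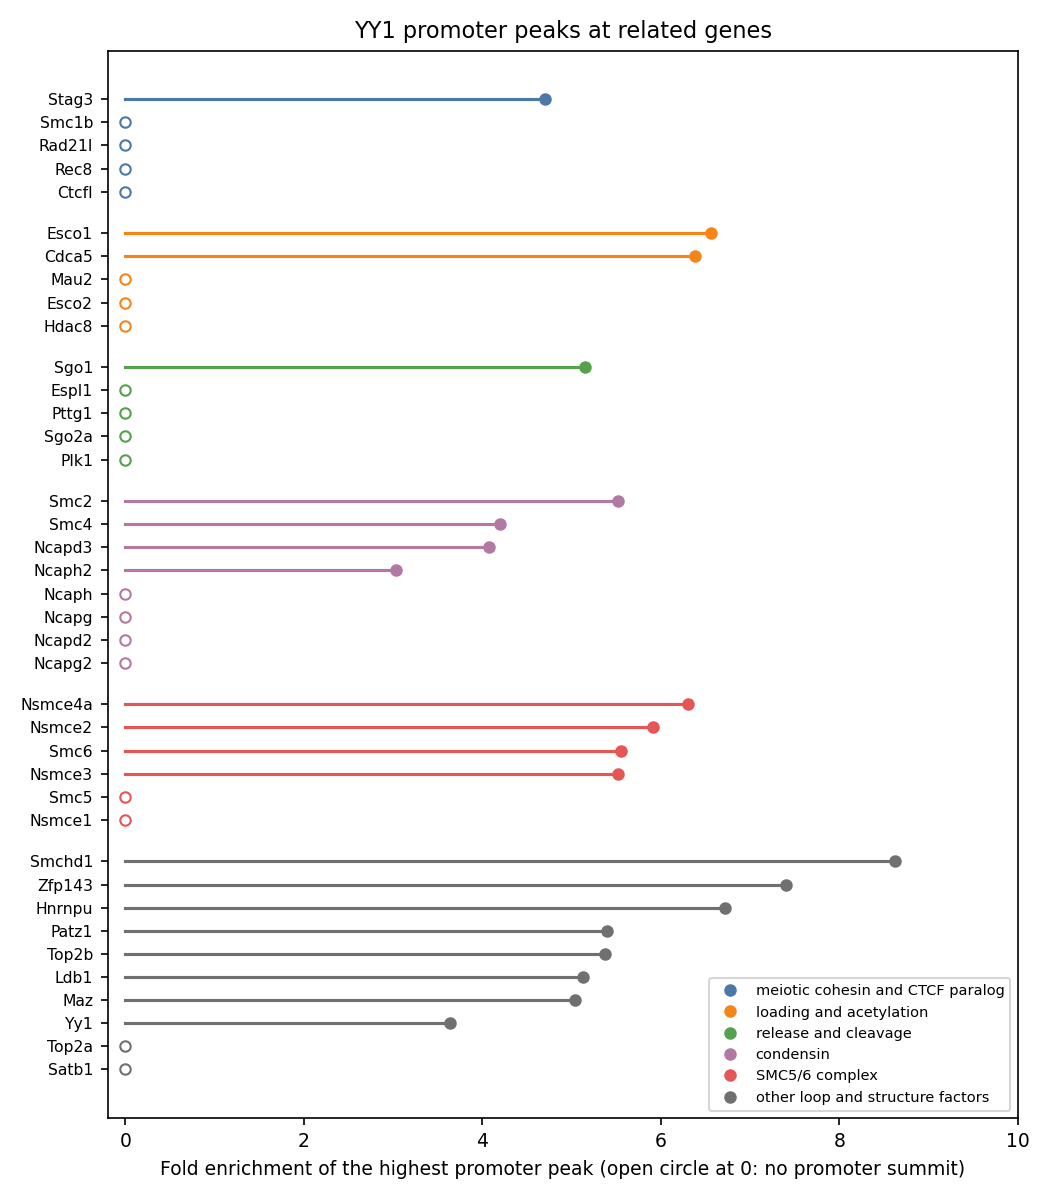
Fold enrichment of the highest promoter peak at each of the 39 related genes (filled circles), by subgroup, with an open circle at 0 for the 19 genes without a promoter summit. Bound genes run from 3.03 at Ncaph2 to 8.63 at Smchd1.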

How the data were processed

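The authors, by their methods, mapped trimmed and quality-filtered reads to mm10 with Bowtie2 and removed redundant ones. MACS2 then called the peaks of 1 YY1 library against 1 background library (p limit 0.0001). Versions were not given in the sources used here. The deposited peak list gives a fold enrichment, which is the ratio of fragments + 1 to local background + 1 at the summit. The deposited −log10 p-value and q-value are Poisson values within that pair of libraries, and the deposited integer score was not used. A lower depth lets fewer sites pass the limit.

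The 10 genes, the wider list and the motifs were chosen with earlier results of these data known. Summits were placed against every transcript start of the GENCODE M21 basic annotation, release number 21. The number of fragments and the background at each summit were solved from the fold enrichment and p, and whole numbers were recovered at all 4681 peaks (within 0.001 of −log10 p). The most frequent background, 1.54 fragments at 1370 peaks, corresponds to 1.34e+07 fragments, with the narrowest peak, 215 bp, as the fragment length and 1.87e+09 bp as the genome size. Intervals are 95% exact Poisson for fragments and exact binomial (Clopper-Pearson) for shares, and cover counting error only. Sequences are RefSeq GRCm38. Uniqueness was read from stretches of 50 bases every 10 bp. Every one of the 10 genes was named, with genes sharing their summits, the 8 highest bound genes of the wider list and Yy1 with values, and other genes by name. The unbound genes of the wider list and the lower values of its subgroups were named after their values were seen. Placement, motif search and fragment recovery were tested on simulated data. The work used samtools 1.23.1 and, under Python 3.11.15, the packages matplotlib 3.10.9, pandas 2.3.3, pysam 0.24.0, numpy 2.4.6 and scipy 1.17.1. Other promoter windows, thresholds, placements, start sites and motif forms were tried. The RNA-seq, Hi-C and other assays of the study were not analysed here.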

Additional observations from a re-analysis of the deposited data

How the results depend on the processing

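No paired analysis was possible because the YY1 library stands alone, with no test between groups, and no replicate could be left out. The number of loop genes with a promoter summit was 6 to 8 under all alternatives. It was 7 within 500 bp, without Nipbl, 6 from 1000 bp upstream to 100 bp downstream, without Wapl and Pds5a, 6 at a fold enrichment of at least 5, without Smc3 and Rad21, and 7 with 1 start per gene, without Stag1. Smc1a and Stag2 had no promoter summit under any of them. Of all protein-coding genes, 4119 in the main count, those with a promoter summit numbered 3883 within 500 bp, 3201 in the window reaching 100 bp downstream, 2445 at a fold enrichment of at least 5, 3816 with 1 start per gene and 22 on chromosome X alone. With any overlap of a peak with the gene in place of the summit, 7 loop genes were bound inside. AANATGGC lay within 250 bp of the summit for 5 member peaks, of which that of Smc3 does not itself hold the copy, and inside 4 member peaks, the core ATGGC alone was in 4, and 4 genes had a match within 100 bp of a start. The median distance to the nearest summit was 263 bp at a q-value under 0.01, 584 bp at a fold enrichment of at least 5 and 562 bp with 1 start per gene. In all, 38 of 48 alternatives, some of them named above, moved a count or a distance by at most 1.5 times, left the motif count of 0 at 0, or gave a median fold enrichment of 5.13 or 5.32. Those on chromosomes, on the comprehensive annotation and on matches near starts were chosen after seeing the data. With 11 to 21 fragments at a summit, heights of these genes cannot be ranked, and an absent peak limits binding only to fewer fragments than the caller needs.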
